A study of Gossypium hirsutum with 45 samples.

Results

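The genes for phospholipases C and D of upland cotton (Gossypium hirsutum) were followed in leaf, root and stem over 180 min of osmotic stress. They were picked by the words of their descriptions (phosphatidylinositol-specific phospholipase C, phosphoinositide phospholipase C or phospholipase D), which 64 of the 75376 genes in the table matched. Of these, 23 were of the C type and 38 of the D type. Another 3 matched by letters alone, a patatin-like protein and a pair named phospholipase A1-IIgamma; they are other lipases and are described apart. The plants were seedlings of the cultivar Hengmian HD008 with 3 leaves, raised in sterilized sand at 25 °C under 16 h of light and 8 h of dark. All of the treated seedlings were given 10% PEG 6000, a polymer that draws water away from roots without entering cells. Leaf, root and stem were each collected untreated (0 min, labelled CK) and at 10, 30, 60 and 180 min, which gave 15 groups of 3 libraries.

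Phospholipase C cleaves phosphorylated phosphatidylinositol in the plasma membrane into diacylglycerol, which stays in the membrane, and a soluble inositol phosphate. In plants much of the diacylglycerol is phosphorylated by diacylglycerol kinases to phosphatidic acid, a lipid messenger. Phospholipase D makes phosphatidic acid in a single step, by cutting the head group off lipids such as phosphatidylcholine. Both enzyme families are known to act within minutes of water loss, salt or abscisic acid, the hormone that closes stomata in drying plants.

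Libraries held 16373617 to 21774520 reads counted in genes, so that a single read over 1 kb of gene counts for 0.0440 to 0.0899 FPKM, the unit of the table (fragments by gene length and depth). Levels are in FPKM, as means ± SD of 3 libraries where an SD is given. Changes are differences of log2(FPKM + 1), which understate the change of genes with low FPKM, and adjusted p-values are from limma over all genes that passed the filter. A change is called, and said to have risen or fallen, where that p is under 0.05. Values of replicates 1, 2 and 3 are given in that order, except in root at 0 min, where the order is replicate 2 and then libraries x and y, which share 1 name and carry no replicate number. Whether the libraries of a group are from separate plants is not stated in the labels. The p-values therefore describe the variation among the libraries, and this may be technical. No untreated plants of 10 to 180 min are among the libraries, so time of day and handling cannot be told apart from PEG. In whole tissue, fewer cells of a type and less RNA per cell cannot be told apart either. Markers of green tissue (65 genes) summed to 11608 to 26798 FPKM in leaf, 1302 to 5681 in stem and 9.58 to 69.1 in root. Within a tissue they moved with time. In leaf they summed to 19749 to 21829 FPKM at 0 min and 11608 to 14189 at 180 min, in stem to 2542 to 3353 at 0 min and 1302 to 1336 at 60 min, and in root to 13.3 to 29.6 at 0 min and 44.95 to 69.1 at 180 min, without overlap. Their part in the leaf and root results at 180 min and the stem results at 60 min was not tested. Cellulose synthase genes (2), which mark lignified stem, summed to 4.44 to 85.6 FPKM over the stem libraries and 12.7 to 49.6 at 0 min alone. They stayed at or below 6.14 in leaf and root. Correlations between libraries of a group were lowest in stem, down to 0.855 at 180 min and 0.884 at 0 min. The part of this unevenness in the stem results was not tested. Casparian strip genes (3), which mark root, summed to 23.2 to 30.9 FPKM in root at 0 min, 2.90 to 28.1 over 10, 30 and 60 min and 0 to 11.7 at 180 min, and stayed at or below 0.398 in leaf and stem. The root libraries at 180 min also stood apart in summed FPKM over all genes, at 872790 to 1029700 against 480945 to 776696 in the other 42, and the part of either in the root results at 180 min was not tested.

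Of the C type genes, 18 carried the X and Y domains that together form the catalytic core, 4 carried the X domain alone, and 1 (A05G088400) carried neither and held a C2 domain with an RNA-binding motif. (Gene names are given without their prefix Gohir.; the letter and number at the start are the subgenome and chromosome.) The Swiss-Prot name phosphoinositide phospholipase C 2 was given to 3 of them, C 4 to 2, and C 1 and C 6 to 1 each. Of the D type genes, 26 carried the active site motif with a C2 domain, which binds membranes in response to calcium, 9 carried the motif without a C2 domain, as the zeta class does in Arabidopsis, and 3 held no active site motif. Named classes were delta (3 genes), zeta 1 (2), zeta 2 (1) and alpha 1 (1), and 31 had no class. The A and D subgenomes, which cotton inherited from its diploid parents, held 12 and 11 genes of the C type and 19 each of the D type. Several C type genes lay in runs: 5 on A05 from A05G088100 to A05G088500, 4 on D05 from D05G089133 to D05G089500, and a pair side by side on both A06 and D06. Near-identical copies and neighbours may share reads, and the handling of such reads is not given, so the split of a level between copies is uncertain.

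A level of at least 1 FPKM in at least 3 libraries of a tissue, the filter for testing, was met by 13 C type and 16 D type genes in leaf, 15 and 20 in root, and 14 and 20 in stem. In no tissue did 7 C type and 16 D type genes reach it. Among these, 3 C type genes (A10G236400, D10G248200 and D05G089133, the last named C 1 and lying in the D05 run) and 2 D type genes (A12G103150 and D12G106400) had 0 reads in all 45 libraries, which does not exclude a level too low to be read. The highest value of the others was 1.21 FPKM, for D06G192400 of the D type. The 8 genes D06G169700 (named C 6), A06G163600, A05G088400 and D12G033800 of the C type, and D11G088200, D02G056200, D05G056800 and D11G280550 (zeta 2) of the D type, were among them, with highest values of 0.0919 to 1.08 FPKM.

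In leaf the 23 C type genes summed to 159 ± 21.0 FPKM at 0 min and 413 ± 24.8 at 180 min, and the 38 D type genes to 462 ± 93.8 and 1065 ± 163. In root the C type sum was 197 ± 8.69 FPKM at 0 min, 482 ± 120.1 at 30 min and 234 ± 31.0 at 180 min. The D type sum in root was 556 ± 99.9, 1415 ± 259 and 766 ± 135 FPKM at those times. In stem the C type went from 216 ± 15.4 FPKM over 368 ± 54.0 at 30 min to 209 ± 86.4 at 180 min, and the D type from 496 ± 35.7 over 882 ± 109 to 414 ± 85.4. At 0 and 180 min the stem libraries overlapped in both sums, while in leaf every library at 180 min lay above every library at 0 min. These sums over chosen genes were not tested. A pair on chromosomes A06 and D06 held 39.2% (leaf at 0 min) to 84.5% (root at 180 min) of the C type sum. Another pair, on A10 and D10, held 41.0% (root at 180 min) to 89.8% (leaf at 180 min) of the D type sum.

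**Figure D1:**
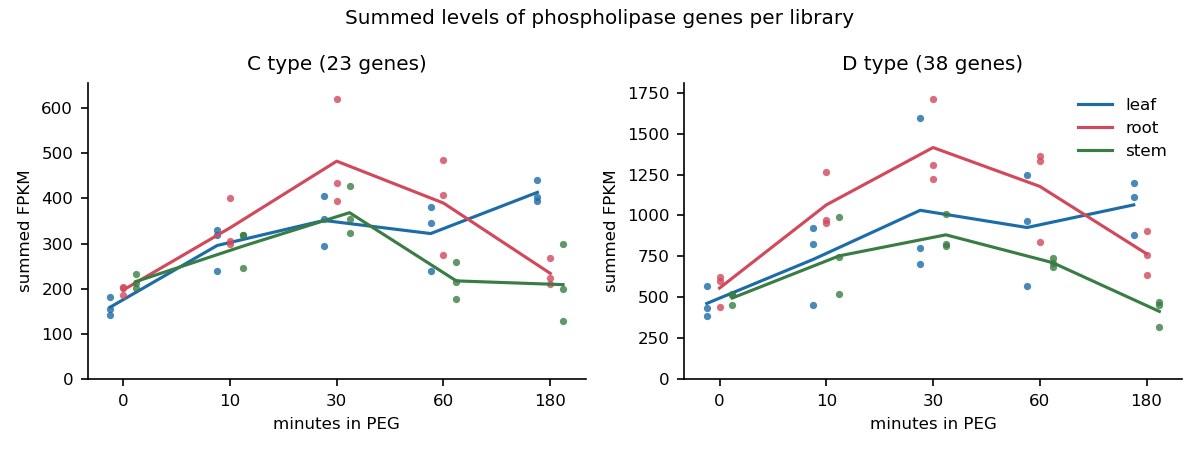
Summed FPKM of the 23 C type genes (left) and the 38 D type genes (right) against minutes in PEG, with times evenly spaced and not to scale; each point is 1 library and lines join the means of 3. Leaf stayed high at 180 min (413 and 1065 FPKM), whereas root and stem peaked at 30 min and were lower at 180 min.

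Over the 4 times after 0 min, a combined F test called 5 C type and 9 D type genes in leaf, where it called 30.0% of all genes tested. In root it called 14 of the 15 C type and 19 of the 20 D type genes tested, against 66.8% of all genes. In stem it called 3 C type and 9 D type genes, against 34.4%. The D type counts include A01G108800, D01G095200 and A11G270400 in root and D03G056600 in root and stem. There these genes passed the filter through the libraries in which they were high, so that the filter favours a call. The leaf count of the C type was 3 without replicate 1 at 10 min or replicate 1 or 3 at 180 min, and the stem count of the C type was 1 without replicate 2 or 3 at 60 min and 6 without replicate 3 at 180 min. By this test 1 C type gene (D02G225200) and 4 D type genes (A11G084300, D03G005200, D10G076900 and D12G058300) were called in all 3 tissues. The share of all genes called in all 3 tissues was not counted, so no conclusion is drawn from these numbers.

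**Figure D2:**
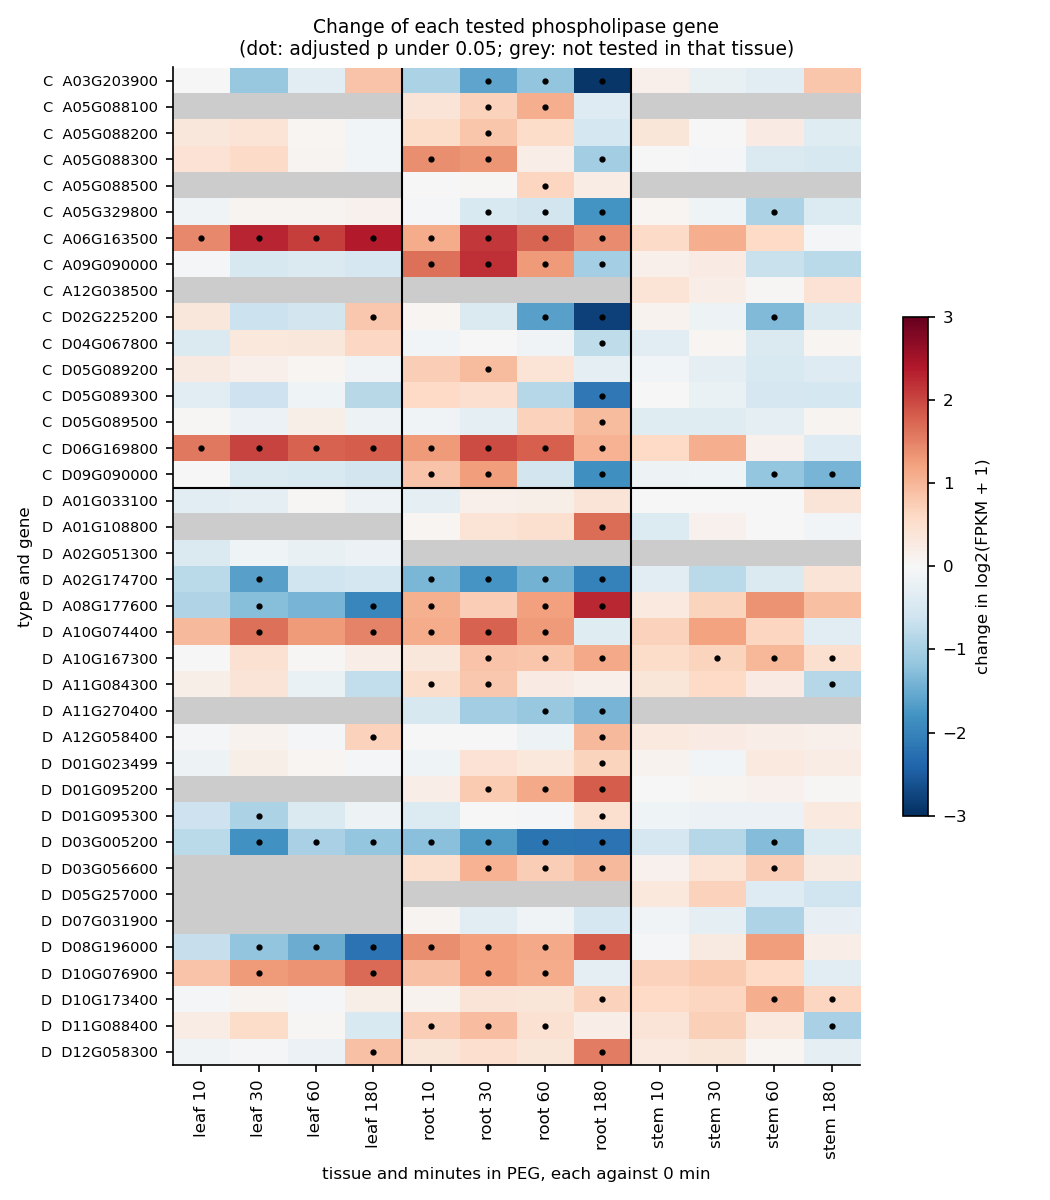
Change in log2(FPKM + 1) against 0 min of the same tissue (colour, red higher and blue lower) for each C and D type gene tested in at least 1 tissue, with tissues and times in columns. Dots mark an adjusted p under 0.05 and grey marks genes not tested in that tissue; root holds most dots, and A06G163500 and D06G169800 carry dots at all 4 times in leaf and root.

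The pair on A06 and D06 held 39.2% of the C type sum in leaf, 42.9% in root and 62.8% in stem at 0 min. At 30 min it held 80.3%, 73.7% and 79.9%. A06G163500 (A06, 120879209 to 120883115, minus strand) and D06G169800 (D06, 60002057 to 60005978, plus strand), the latter named phosphoinositide phospholipase C 2, both carry the X and Y domains; C 2 is the main constantly expressed form in Arabidopsis. In leaf A06G163500 read 28.8, 26.6 and 24.4 FPKM at 0 min, 92.6, 67.9 and 63.2 at 10 min and 111, 157 and 135 at 30 min. It then read 152, 78.2 and 128 at 60 min and 158, 136 and 135 at 180 min. D06G169800 read 41.4, 42.2 and 24.5 FPKM at 0 min, 127, 96.98 and 101 at 10 min and 111, 198 and 139.8 at 30 min. It then read 156, 82.8 and 137 at 60 min and 139, 125 and 117 at 180 min in the same libraries. For both genes all 12 treated leaf libraries lay above all 3 at 0 min. The rise of A06G163500 was 1.44 (SE 0.24, adjusted p = 0.0129) at 10 min and 2.38 (SE 0.24, adjusted p = 2.04e-05) at 180 min, when its mean was 5.38-fold that at 0 min. D06G169800 rose by 1.59 (SE 0.28, adjusted p = 0.0166) at 10 min and by 2.02 (SE 0.28, adjusted p = 0.000705) at 30 min. The calls at 10 min were the weakest: that of A06G163500 was lost without leaf replicate 2 at 0 min (adjusted p = 0.0537), and that of D06G169800 without leaf replicate 3 at 0 min (0.0594) or replicate 1 at 10 min (0.0553).

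In root the same pair was highest at 30 min and stayed above its start. A06G163500 read 30.4, 28.9 and 34.7 FPKM at 0 min, 65.9, 60.8 and 81.4 at 10 min and 112, 129.7 and 189 at 30 min. It then read 79.03, 110.1 and 142 at 60 min and 75.02, 104 and 77.9 at 180 min there. D06G169800 read 56.5, 51.3 and 51.3 FPKM at 0 min, 111, 109 and 181 at 10 min and 165, 186 and 293 at 30 min. It then read 120.3, 208 and 263 at 60 min and 112, 133 and 91.9 at 180 min. Again no treated library of either gene overlapped those at 0 min. The change at 30 min was 2.13 (SE 0.25, adjusted p = 3.08e-05) for A06G163500 and 1.95 (SE 0.30, adjusted p = 0.000292) for D06G169800, or 4.58-fold and 4.05-fold on the mean FPKM. At 180 min A06G163500 still stood 1.41 (SE 0.25, adjusted p = 0.000289) above 0 min. The rise of D06G169800 at 180 min, 1.05 (SE 0.30, adjusted p = 0.00964), was 0.33 under quantile scaling and 0.44 with libraries brought to the same summed FPKM, and was then no longer called; its call at 10 min was lost without root replicate 3 at 10 min (adjusted p = 0.0504).

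In stem the pair started higher. A06G163500 read 60.2, 61.7 and 50.7 FPKM at 0 min, 103, 99.9 and 60.5 at 10 min and 104, 115 and 159.7 at 30 min. It then read 80.5, 107 and 76.3 at 60 min and 100.2, 76.2 and 23.02 at 180 min, and at 180 min replicate 3 lay below and replicates 1 and 2 above all 3 libraries at 0 min. D06G169800 was at 78.3 ± 8.95 FPKM at 0 min, 169 ± 30.8 at 30 min and 68.05 ± 38.96 at 180 min. At 30 min all 3 stem libraries lay above those at 0 min for both genes, but the changes of 1.101 (SE 0.43, adjusted p = 0.192) and 1.09 (SE 0.38, adjusted p = 0.15) were not called. The difference in response between leaf and stem was called for both genes (interaction F test, adjusted p = 0.00492 and 0.012), and at 180 min the leaf response of A06G163500 exceeded the stem response by 2.41 (SE 0.46, adjusted p = 0.000535).

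**Figure D3:**
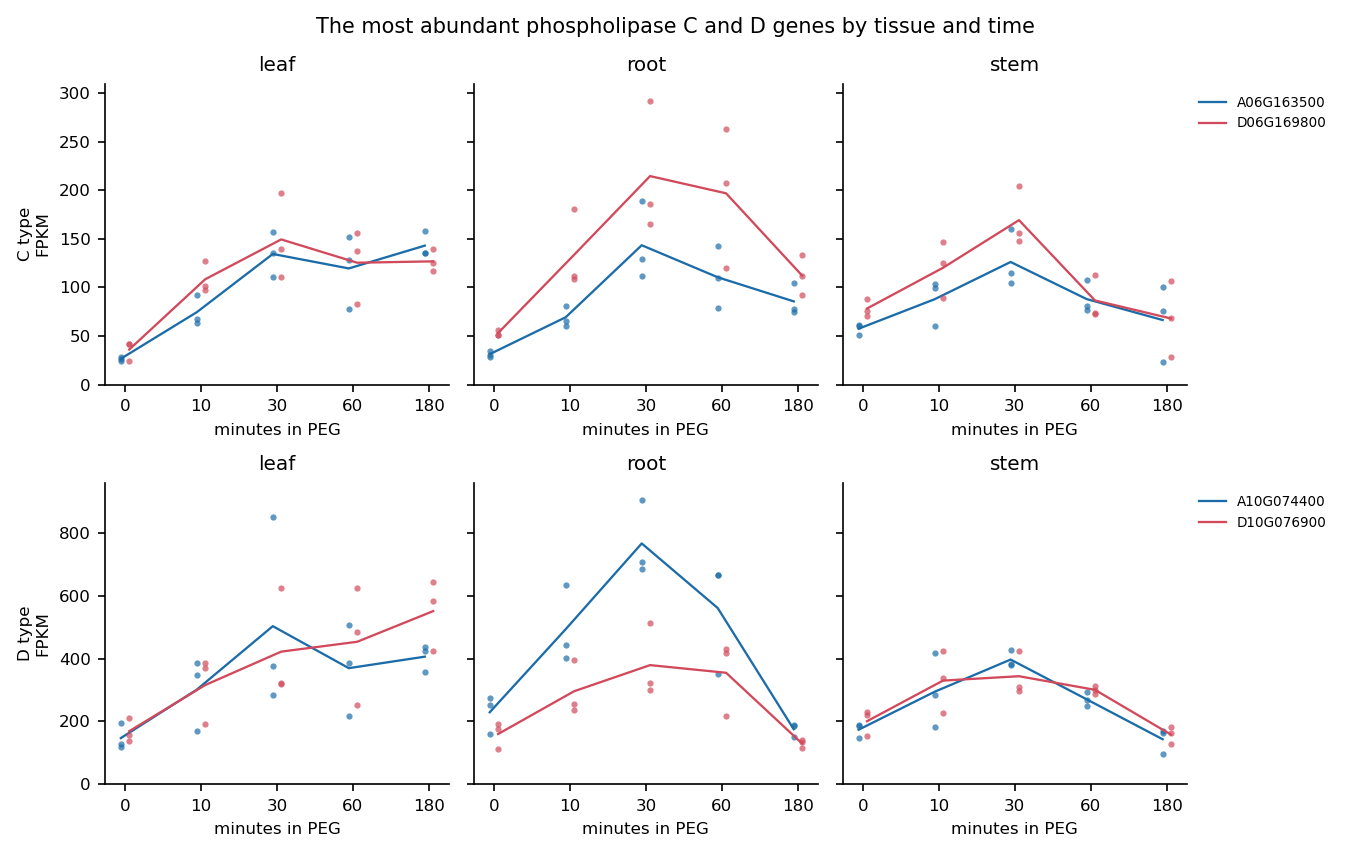
FPKM of the most abundant C type pair (top) and D type pair (bottom) by tissue and minutes in PEG, with times evenly spaced and not to scale; points are libraries, lines join means of 3, and each row shares 1 axis. In leaf and root every library at 30 min lies above those at 0 min for all 4 genes, and in root the libraries of the D type pair at 180 min overlap those at 0 min.

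A second set of C type genes moved in root in 2 phases, up within 30 min and below the start at 180 min. A09G090000 (A09, 64006656 to 64010152, minus strand), named phosphoinositide phospholipase C 4, read 3.12, 4.09 and 2.04 FPKM at 0 min, 12.8, 13.8 and 8.54 at 10 min and 15.4, 19.8 and 16.95 at 30 min. It then read 5.63, 11.99 and 9.61 at 60 min and 0.341, 0.753 and 2.27 at 180 min in root. D09G090000 (D09, 37001251 to 37004987, minus strand), on the matching D chromosome, read 5.04, 5.92 and 5.01 FPKM at 0 min, 10.1, 12.7 and 8.62 at 10 min and 11.2, 15.2 and 16.2 at 30 min. It then read 2.398, 3.74 and 3.92 at 60 min and 0.472, 0.529 and 1.42 at 180 min. The 30 min libraries lay above and those of D09G090000 at 180 min below all libraries at 0 min, while those of A09G090000 at 180 min overlapped them. At 30 min the changes were 2.19 (SE 0.32, adjusted p = 0.000196) and 1.25 (SE 0.22, adjusted p = 0.000753). From 60 to 180 min they were -2.297 (SE 0.32, adjusted p = 0.000177) and -1.29 (SE 0.22, adjusted p = 0.000737), and at 180 min D09G090000 stood at -1.84 (SE 0.22, adjusted p = 1.18e-05) against 0 min. The fall of A09G090000 below its start, -1.02 (SE 0.32, adjusted p = 0.0163), was lost without root library x at 0 min (adjusted p = 0.0704), or replicate 1 (0.0809) or 2 (0.0566) at 180 min. Leaf showed no call for either gene, and in stem D09G090000 fell by 1.39 at 180 min (adjusted p = 0.0109). Leaf and root differed in the response of both (interaction F test, adjusted p = 0.00107 and 0.000109).

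The genes of the runs on A05 and D05 differed in their courses in root. A05G088100 (A05, 8483327 to 8486450, minus strand) read 5.11, 7.07 and 5.51 FPKM at 0 min, 7.501, 8.16 and 8.197 at 10 min and 10.6, 8.604 and 11.2 at 30 min. It then read 16.7, 11.4 and 13.4 at 60 min and 2.75, 3.64 and 7.06 at 180 min in root, and 0.0690 to 0.511 FPKM over the 30 leaf and stem libraries. Its root level rose by 1.099 (SE 0.24, adjusted p = 0.00254) at 60 min and the change from 60 to 180 min was -1.497 (SE 0.24, adjusted p = 0.000419). Its neighbour A05G088300 (A05, 8510164 to 8513428, minus strand) read 2.95, 3.47 and 1.15 FPKM at 0 min, 7.67, 10.97 and 5.56 at 10 min and 4.83, 9.28 and 8.94 at 30 min. It then read 2.33, 3.69 and 2.65 at 60 min and 0.0695, 0.6904 and 1.3999 at 180 min. It was high at 10 and 30 min without overlap with 0 min, and its change at 30 min was 1.32 (SE 0.35, adjusted p = 0.00981), which was 1.00 (adjusted p = 0.0505) without root library y at 0 min. A05G088200, the member of the run named C 2, rose by 0.84 (SE 0.25, adjusted p = 0.0187) at 30 min, and D05G089200 by 0.94 (SE 0.26, adjusted p = 0.0124); both calls were lost without root library y at 0 min (adjusted p = 0.0645 and 0.0584). They were also lost without replicate 3 at 30 min (0.0614 and 0.0631), and that of A05G088200 without library x (0.0512) or replicate 2 at 30 min (0.0692). D05G089300 (D05, 7350804 to 7354264, minus strand) read 13.2, 10.2 and 3.45 FPKM at 0 min, 13.3, 14.2 and 10.2 at 10 min and 8.36, 13.4 and 13.9 at 30 min. It then read 2.82, 4.62 and 4.45 at 60 min and 0.612, 0.91002 and 1.69 at 180 min. All 3 libraries at 180 min lay below the rest, and the fall against 0 min was -2.14 (SE 0.36, adjusted p = 0.000201). D05G089500 (D05, 7363454 to 7367245, minus strand) went the other way and read 4.95, 5.596 and 4.92 FPKM at 0 min, 8.76, 9.74 and 8.51 at 60 min, and 5.25, 11.8 and 20.1 at 180 min. Its groups at 0 and 180 min overlapped, and the rise of 0.96 (SE 0.32, adjusted p = 0.0206) was 0.54 (adjusted p = 0.0892) without replicate 3 at 180 min. The call was also lost without replicate 2 or library y at 0 min (both 0.0523) or replicate 2 at 180 min (0.0614), and the change was 0.41 and not called at the same summed FPKM. D05G089500 overlaps D05G089400 on the other strand, and reads of the overlap may belong to either. D04G067800, outside the runs, fell to 0.154 ± 0.0978 FPKM in root at 180 min, with a change of -0.76 (SE 0.18, adjusted p = 0.00236) that was -0.43 and not called under quantile scaling.

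**Figure D4:**
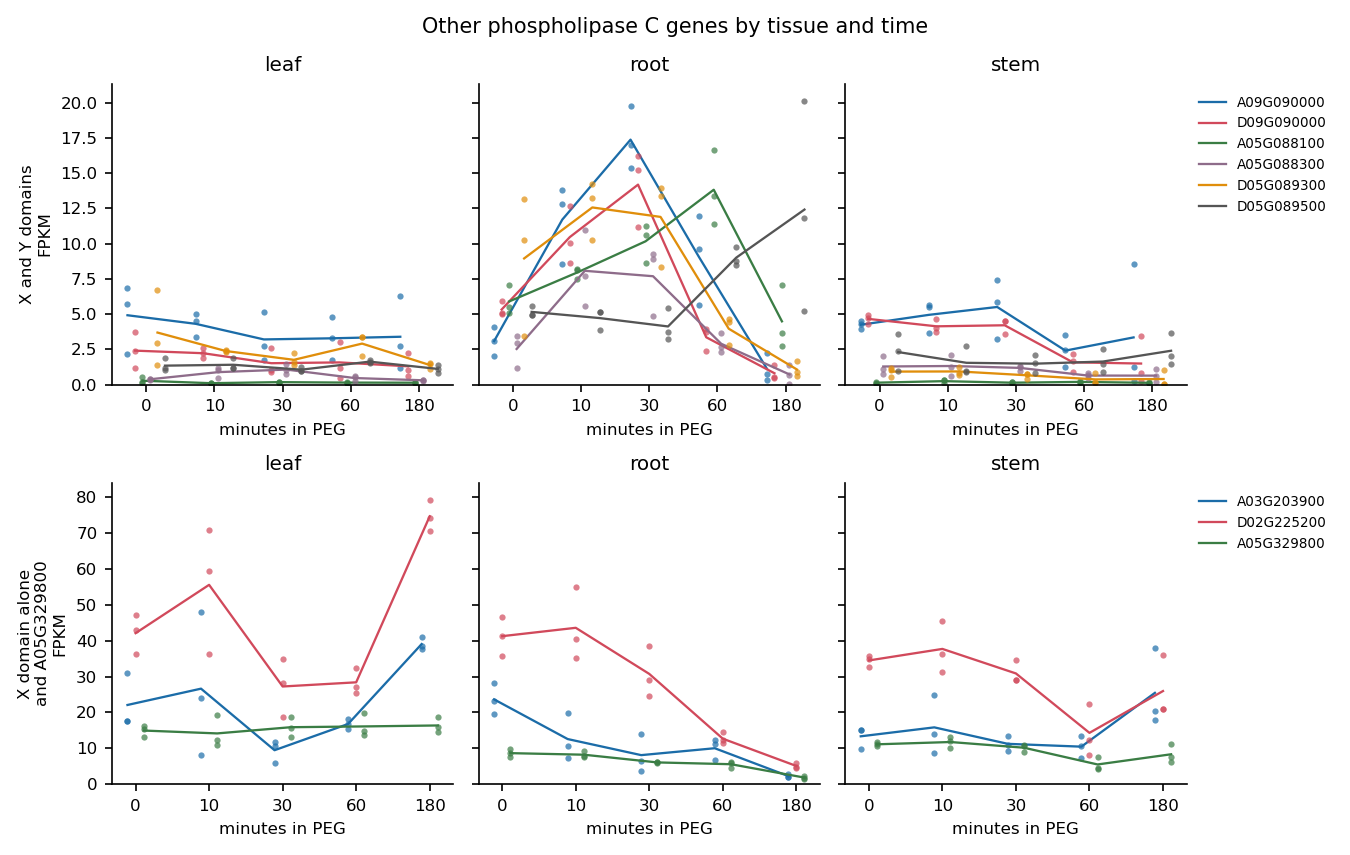
FPKM of other C type genes by tissue and minutes in PEG, with times evenly spaced and not to scale: 6 genes with the X and Y domains (top), and 2 with the X domain alone with A05G329800 (bottom). Points are libraries and lines join means of 3; in the upper row A05G088100 does not pass 0.511 FPKM in leaf and stem, and in the lower row D02G225200 ends at 74.7 FPKM in leaf and 5.05 in root.

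Genes with the X domain alone parted between tissues. D02G225200 (D02, 71149482 to 71150787, plus strand) read 36.4, 47.1 and 42.9 FPKM at 0 min, 59.6, 36.3 and 70.97 at 10 min and 28.1, 18.7 and 34.9 at 30 min. It then read 27.2, 25.5 and 32.4 at 60 min and 74.4, 79.3 and 70.6 at 180 min in leaf. All libraries at 180 min lay above those at 0 min and, except for replicate 3 at 10 min, above all other leaf libraries, and those at 30 and 60 min were below all 3 at 0 min. In root it read 41.4, 46.6 and 35.8 FPKM at 0 min, 35.2, 40.5 and 55.1 at 10 min and 29.1, 24.5 and 38.6 at 30 min. It then read 11.4, 14.4 and 12.2 at 60 min and 5.85, 4.68 and 4.62 at 180 min, with all libraries at 60 and 180 min below all earlier ones. The root change was -2.802 (SE 0.20, adjusted p = 1.12e-07) at 180 min, an 8.17-fold lower mean, while leaf stood at 0.82 (SE 0.25, adjusted p = 0.0357) in the same comparison and 1.37 (SE 0.25, adjusted p = 0.00343) above its own level at 60 min. The leaf call against 0 min was lost without any 1 of the 6 libraries compared (adjusted p of 0.0579 to 0.112). It was also lost under both other scalings, where the change itself was 0.79 and 0.77. Stem, at 34.5 ± 1.57 FPKM at 0 min, fell by 1.33 at 60 min (adjusted p = 0.00909) to 14.3 ± 7.41. The response differed in all 3 pairs of tissues, most between leaf and root (interaction F test, adjusted p = 6.39e-10), where leaf exceeded root by 3.62 (SE 0.37, adjusted p = 1.54e-09) at 180 min. A03G203900 (A03, 112565310 to 112566266, plus strand) read 19.7, 23.1 and 28.2 FPKM at 0 min and 1.88, 2.91 and 1.92 at 180 min in root, a change of -2.93 (SE 0.39, adjusted p = 3.00e-05). In leaf it read 17.5, 30.98 and 17.7 FPKM at 0 min and 40.9, 38.5 and 37.8 at 180 min, a change of 0.84 (SE 0.46, adjusted p = 0.22) that was not called although the groups did not overlap. The other genes of this kind, A12G038500 and D12G033800, stayed at or below 1.35 FPKM.

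A05G329800 (A05, 78970136 to 78973965, plus strand), named phosphoinositide phospholipase C 2 and lying far from the A05 run, fell in root and stem and had no call in leaf. In root it read 9.72, 8.59 and 7.59 FPKM at 0 min, 7.87, 9.12 and 7.62 at 10 min and 5.77, 6.21 and 6.15 at 30 min. It then read 4.58, 6.06 and 5.998 at 60 min and 1.43, 1.65 and 2.35 at 180 min. Its libraries at 180 min lay below all others, with a change of -1.78 (SE 0.16, adjusted p = 6.16e-07), or 4.77-fold lower on the mean. In leaf it ran from 14.9 ± 1.51 FPKM at 0 min to 16.4 ± 2.096 at 180 min, a change of 0.12 (SE 0.21, adjusted p = 0.734). In stem it read 10.6, 11.6 and 11.1 FPKM at 0 min and 7.64, 4.56 and 4.23 at 60 min, without overlap, and fell by 0.94 (adjusted p = 0.00929). The response differed between leaf and root (interaction F test, adjusted p = 2.59e-06).

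Set against 0 min in leaf, 2 C type genes were called higher at 10, 30 and 60 min and 3 at 180 min. Over all genes 0.884%, 8.33%, 2.04% and 9.89% were called higher in leaf at those times. No C type gene (0) was called lower in leaf, where 0.625%, 9.50%, 1.90% and 9.61% of all genes were. The D type counts in leaf were 0 at 10 min (7 at an unadjusted p under 0.05), 2 higher and 5 lower at 30 min, 0 and 2 at 60 min and 4 and 3 at 180 min. In either direction 1.51%, 17.8%, 3.94% and 19.5% of all genes were called in leaf.

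In root 5 C type genes were called higher and 0 lower at 10 min, 8 and 2 at 30 min, 5 and 3 at 60 min and 3 and 8 at 180 min. All genes of the root gave 8.16%, 17.6%, 19.5% and 28.5% higher. They gave 7.03%, 16.6%, 19.1% and 26.9% lower, and 15.2%, 34.2%, 38.6% and 55.3% in either direction. The D type counts in root were 5 higher and 2 lower at 10 min, 8 and 2 at 30 min, 8 and 3 at 60 min, and 11 and 3 at 180 min. At some of these times A01G108800, D01G095200 and D03G056600 were among the higher and A11G270400 among the lower. These genes passed the filter in root through the libraries in which they were high, so that the filter favours a change. With libraries brought to the same summed FPKM the median of all genes in root at 180 min moved from -0.004 to -0.44. The 14 higher and 11 lower C and D type genes then became 8 higher and 19 lower. The same scaling gave 11 higher and 8 lower in root at 60 min in place of 13 and 6, and 2 higher and 1 lower in leaf at 60 min in place of 2 and 2.

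In stem 0 C type genes were called higher, and 0, 0, 3 and 1 were called lower at 10, 30, 60 and 180 min. At an unadjusted p under 0.05 these were 0, 2, 3 and 2 C type genes. The D type counts in stem were 0 at 10 min (4 at an unadjusted p under 0.05), 1 higher and 0 lower at 30 min, 3 and 1 at 60 min, and 2 and 2 at 180 min. The higher ones include D03G056600 at 1 time, which passed the filter in stem only through treated libraries, so that the filter favours a rise. All genes of the stem gave 0.00210%, 1.61% and 13.3% higher at 10, 30 and 60 min, and 0%, 0.759%, 11.6% and 14.3% lower at the 4 times. In either direction they gave 2.37% at 30 min, 24.9% at 60 min and 29.3% at 180 min. Quantile scaling gave 5 higher and 4 lower in stem at 60 min in place of 3 and 4.

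Some of these counts rested on single libraries. The 5 C type genes higher in root at 10 min were 3 without library y at 0 min or replicate 2 at 10 min. The 5 of the D type were 1 without library y and 2 or 3 without any other library at 0 or 10 min. At 30 min the 8 C type genes higher in root were 4 without library y and 5 without replicate 3 at 30 min, and the 2 lower were 1 without replicate 2 or library x at 0 min, replicate 1 at 10 min or replicate 1 or 2 at 30 min. Of 9 C and D type genes called in leaf at 30 min, 5 were called without replicate 2 at 0 min or replicate 2 at 30 min. The 4 called in leaf at 60 min were 2 without any 1 of the libraries at 0 min or replicate 1 or 3 at 60 min. The 12 called in root at 10 min were 6 without library y at 0 min, 7 without replicate 2 at 10 min and 8 without replicate 1 at 10 min. The 5 called in stem at 180 min were 3 without replicate 2 at 180 min and 9 without replicate 3.

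Between consecutive times most calls were in root from 60 to 180 min, where 10 C type genes fell and 0 rose, and 2 D type genes fell and 6 rose. Of all genes 14.2% fell there and 17.6% rose, or 31.8% in all. With libraries brought to the same summed FPKM the 6 higher and 12 lower became 1 and 18, and under quantile scaling 4 and 14. From 30 to 60 min in root 4 C type and 2 D type genes fell and 1 C type gene rose, where 8.55% of all genes fell and 7.76% rose (16.3% in all). The total of 7 was 2 without replicate 2 or 3 at 30 min or replicate 1 at 60 min, and 3 or 4 without replicate 2 or 3 at 60 min, replicate 2 at 0 min, replicate 1 at 10 min or replicate 2 at 180 min. From 10 to 30 min in root 1 C type gene rose, with 2.49% of all genes rising and 2.17% falling (4.66% in all).

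In leaf 0 genes of either type were called from 10 to 30 min (4 C type and 2 D type at an unadjusted p under 0.05), with 0.765% of all genes higher and 0.493% lower (1.26% in all). From 30 to 60 min 1 D type gene rose in leaf, with 2.63% of all genes higher and 2.23% lower (4.87% in all). From 60 to 180 min 1 C type and 2 D type genes rose and 0 fell in leaf, against 6.19% and 4.14% of all genes (10.3% in all). In stem 2 C type genes fell from 30 to 60 min, with 4.48% of all genes falling and 3.92% rising (8.39% in all). Under quantile scaling 0 were called there, and at the same summed FPKM 2 were higher and 0 lower. The 2 that fell were 0 without replicate 1 or 2 at 30 min or replicate 2 or 3 at 60 min, 1 without replicate 2 at 10 min or replicate 3 at 30 min, and 4 without replicate 3 at 180 min. From 60 to 180 min 4 D type genes fell in stem, with 6.16% of all genes falling and 4.92% rising (11.1% in all). These 4 were 2 without replicate 2 or 3 at 0 min, replicate 2 at 10 min, replicate 1 or 2 at 30 min, replicate 2 or 3 at 60 min or replicate 1 at 180 min.

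Among phospholipases D the pair A10G074400 (A10, 11845519 to 11850717, minus strand) and D10G076900 (D10, 9084008 to 9089138, plus strand) was the most abundant in every group but root at 180 min. Both carry a C2 domain with the active site motif and have no class name in the files. In leaf A10G074400 read 119, 127 and 194 FPKM at 0 min, 385, 349 and 169 at 10 min and 376, 851 and 282 at 30 min. It then read 506, 217 and 385 at 60 min and 437, 357 and 424 at 180 min. D10G076900 read 136, 158 and 212 FPKM at 0 min, 385, 371 and 190.1 at 10 min and 319.9, 625 and 322 at 30 min. It then read 624, 253 and 484 at 60 min and 645, 424 and 584 at 180 min. At 30, 60 and 180 min every leaf library of both genes lay above those at 0 min, and at 10 min replicate 3 lay within their range. The changes at 180 min were 1.49 (SE 0.43, adjusted p = 0.0276) and 1.71 (SE 0.39, adjusted p = 0.00779), and at 30 min 1.64 (SE 0.43, adjusted p = 0.0201) and 1.27 (SE 0.39, adjusted p = 0.0382). The leaf call of A10G074400 at 180 min was lost without replicate 1 or 2 at 0 min or any 1 library at 180 min (adjusted p of 0.0592 to 0.0856), and that at 30 min without replicate 1 or 2 at 0 min or replicate 2 at 30 min (0.0672 to 0.0793). For D10G076900 at 30 min the call was lost without replicate 1 or 2 at 0 min or replicate 1 or 2 at 30 min (0.0582 to 0.145).

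In root the same D type pair rose and returned. A10G074400 read 253, 274 and 159 FPKM at 0 min, 443, 403 and 635 at 10 min and 687, 709 and 905 at 30 min. It then read 352, 666 and 665 at 60 min and 149.9, 189 and 185 at 180 min there. D10G076900 read 176, 190.5 and 112 FPKM at 0 min, 254, 237 and 396 at 10 min and 299, 324 and 514 at 30 min. It then read 218, 417 and 429 at 60 min and 114, 134 and 139 at 180 min. Libraries at 30 min lay above all those at 0 min, and at 180 min the groups overlapped. The changes at 30 min were 1.77 (SE 0.30, adjusted p = 0.000502) and 1.24 (SE 0.32, adjusted p = 0.00879), and from 60 to 180 min -1.62 (SE 0.30, adjusted p = 0.00112) and -1.39 (SE 0.32, adjusted p = 0.00514). Against 0 min the level at 180 min was -0.36 (SE 0.30, adjusted p = 0.327) and -0.27 (SE 0.32, adjusted p = 0.496), neither called. The pair accounted for 80.8% of the D type sum in root at 30 min and 41.0% at 180 min. In stem A10G074400 was at 173 ± 23.9 FPKM at 0 min, 397 ± 25.4 at 30 min and 143 ± 39.8 at 180 min; no single time was called, with 1.199 (SE 0.30, adjusted p = 0.0556) at 30 min, while the F test over the 4 times called it (adjusted p = 0.0109). The response of both genes differed between leaf and root (interaction F test, adjusted p = 0.0048 and 0.00233), and at 180 min leaf exceeded root by 1.85 (SE 0.51, adjusted p = 0.00436) and 1.98 (SE 0.48, adjusted p = 0.00139).

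The pair on chromosomes A08 and D08 fell in leaf and rose in root. A08G177600 (A08, 117170853 to 117175104, plus strand) and D08G196000 (D08, 60187640 to 60191897, plus strand) have a C2 domain and the active site motif, and are counted as likely copies because their descriptions match and their chromosomes have the same number. A08G177600 read 8.405, 8.06 and 16.8 FPKM at 0 min, 9.63, 7.36 and 1.63 at 10 min and 4.17, 3.58 and 3.44 at 30 min. It then read 3.45, 2.95 and 3.76 at 60 min and 2.098, 1.71 and 2.09 at 180 min in leaf. All libraries at 30, 60 and 180 min lay below those at 0 min. Its root values were 35.5, 26.9 and 28.7 FPKM at 0 min, 68.03, 79.3 and 49.1 at 10 min and 45.9, 53.3 and 54.5 at 30 min. It then read 73.3, 82.3 and 63.8 at 60 min and 257, 152 and 82.4 at 180 min, with every treated library above every library at 0 min and a wide spread at 180 min. D08G196000 was at 14.6 ± 3.35 FPKM in leaf at 0 min and 2.34 ± 0.5901 at 180 min, and in root at 36.5 ± 4.59 and 152 ± 95.1. The changes at 180 min in leaf were -1.96 (SE 0.40, adjusted p = 0.00432) and -2.22 (SE 0.35, adjusted p = 0.000737), and in root 2.25 (SE 0.32, adjusted p = 4.69e-05) and 1.82 (SE 0.36, adjusted p = 0.000668). These amount to means 5.65-fold lower in leaf and 5.38-fold those at 0 min in root for A08G177600. The difference of the responses, leaf minus root, was -4.21 (SE 0.68, adjusted p = 7.95e-06) and -4.04 (SE 0.68, adjusted p = 1.76e-05). In stem A08G177600 read 11.7, 1.45 and 1.96 FPKM at 0 min and 6.21, 16.2 and 3.76 at 180 min, so that replicate 1 at 0 min stood above the other two libraries of its group, and no time was called for either gene. At 180 min in root the pair held levels like those of the A10 and D10 pair, at 164 and 152 FPKM against 175 and 129.

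A02G174700 (A02, 107845516 to 107850821, plus strand) and D03G005200 (D03, 345810 to 351055, minus strand) fell early. D03G005200 is named phospholipase D delta, a class that in Arabidopsis sits at the plasma membrane. A02G174700 read 19.4, 25.02 and 22.5 FPKM at 0 min, 12.5, 11.4 and 12.7 at 10 min and 5.8004, 5.81 and 8.23 at 30 min. It then read 17.02, 14.4 and 11.7 at 60 min and 21.4, 12.8 and 12.4 at 180 min in leaf. All leaf libraries at 10, 30 and 60 min lay below those at 0 min, and replicate 1 at 180 min lay back among them. The change at 30 min was -1.62 (SE 0.21, adjusted p = 0.000421), after which the level was 1.01 (SE 0.21, adjusted p = 0.0154) higher at 60 min than at 30 min; that last call was lost without replicate 1 or 2 at 30 min or replicate 1 or 2 at 60 min (adjusted p of 0.0529 to 0.0751). D03G005200 read 18.6, 21.1 and 15.6 FPKM at 0 min, 9.31, 8.44 and 12.7 at 10 min and 4.08, 5.299 and 4.197 at 30 min. It then read 10.03, 12.5 and 5.44 at 60 min and 8.398, 8.297 and 6.502 at 180 min, with all treated libraries below those at 0 min, and changes of -1.81 (SE 0.24, adjusted p = 0.000525) at 30 min and -1.15 (SE 0.24, adjusted p = 0.00473) at 180 min. In root A02G174700 read 10.6, 8.55 and 17.2 FPKM at 0 min, 4.28, 4.95 and 2.73 at 10 min and 2.11, 3.51 and 2.68 at 30 min. It then read 4.14, 3.32 and 3.81 at 60 min and 1.64, 2.31 and 2.41 at 180 min. D03G005200 read 7.22, 5.83 and 10.98 FPKM at 0 min, 2.84, 2.61 and 2.65 at 10 min and 1.68, 1.77 and 1.79 at 30 min. It then read 1.12, 0.732 and 0.972 at 60 min and 0.374, 1.31 and 1.15 at 180 min in the same tissue. Both were called lower at all 4 times in root with no overlap, from -1.37 (SE 0.24, adjusted p = 0.00187) and -1.24 (SE 0.22, adjusted p = 0.00188) at 10 min to -2.03 (SE 0.24, adjusted p = 1.04e-05) and -2.21 (SE 0.22, adjusted p = 2.08e-06) at 180 min. In stem D03G005200 fell by 1.29 at 60 min (adjusted p = 0.00979), and A02G174700 was not called at any time.

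Other genes rose late. D12G058300 (D12, 10462918 to 10469014, minus strand), also named delta, read 8.11, 9.695 and 10.01 FPKM at 0 min, 9.84, 8.33 and 7.45 at 10 min and 8.39, 10.3 and 8.36 at 30 min. It then read 9.41, 7.57 and 7.17 at 60 min and 19.4, 16.4 and 17.3 at 180 min in leaf. A12G058400 (A12, 13602258 to 13608356, minus strand) read 4.63, 5.68 and 5.17 FPKM at 0 min, 5.61, 3.95 and 5.64 at 60 min, and 9.74, 7.94 and 9.09 at 180 min there. For both, the 3 leaf libraries at 180 min stood above all other leaf libraries. The changes at 180 min were 0.87 (SE 0.15, adjusted p = 0.00127) and 0.69 (SE 0.14, adjusted p = 0.00457) in leaf. In root D12G058300 read 9.69, 13.003 and 11.4 FPKM at 0 min, 14.9, 15.3 and 14.4 at 60 min, and 21.4, 36.7 and 51.8 at 180 min, without overlap between 180 min and the earlier groups named, and its change was 1.53 (SE 0.25, adjusted p = 0.000178). A12G058400 rose by 0.97 (SE 0.27, adjusted p = 0.00712) in root, which was 0.66 under quantile scaling and 0.39 at the same summed FPKM and then not called. Stem gave no call at single times, and D12G058300 ended there at 9.505 ± 0.777 FPKM after 11.7 ± 0.627 at 0 min. Its response in stem differed from that in leaf (adjusted p = 0.000298) and in root (adjusted p = 5.16e-06).

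The genes A01G108800 (A01, 21222342 to 21227429, minus strand), the remaining delta, and D01G095200 (D01, 16902568 to 16907926, minus strand) were low. In root their levels were higher at 180 min than at 0 min, and then near those of stem. D01G095200 read 0.384, 0.565 and 0.438 FPKM at 0 min, 0.7296, 0.754 and 0.553 at 10 min and 1.86, 1.2003 and 1.48 at 30 min. It then read 2.15, 2.402 and 2.07 at 60 min and 3.99, 3.27 and 5.28 at 180 min in root. In stem it read 2.97, 3.72 and 2.35 FPKM at 0 min and 3.07, 4.15 and 2.21 at 180 min, and in leaf no library passed 0.699 FPKM. Its root libraries from 30 min on lay above those at 0 min. A01G108800 was at 0.469 ± 0.216 FPKM in root at 0 min and 3.73 ± 0.885 at 180 min. Both genes passed the filter in root only through treated libraries, which favours a rise, so their root changes are given by levels alone. D01G095200 overlaps D01G095300 (D01, 16901633 to 16903642, plus strand) on the other strand, so reads may be shared between them. D01G095300, which holds a DNL zinc finger and only the end of a phospholipase D, had its highest level at 0 min in leaf and fell there at 30 min by -0.94 (adjusted p = 0.00522). Its root rise at 180 min, 0.49 (SE 0.19, adjusted p = 0.0475), was -0.04 (adjusted p = 0.878) at the same summed FPKM, and was lost without replicate 2 or library x at 0 min or replicate 2 or 3 at 180 min (adjusted p of 0.0518 to 0.209) and without any 1 of the 9 libraries at 10, 30 or 60 min (0.0530 to 0.0595).

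**Figure D5:**
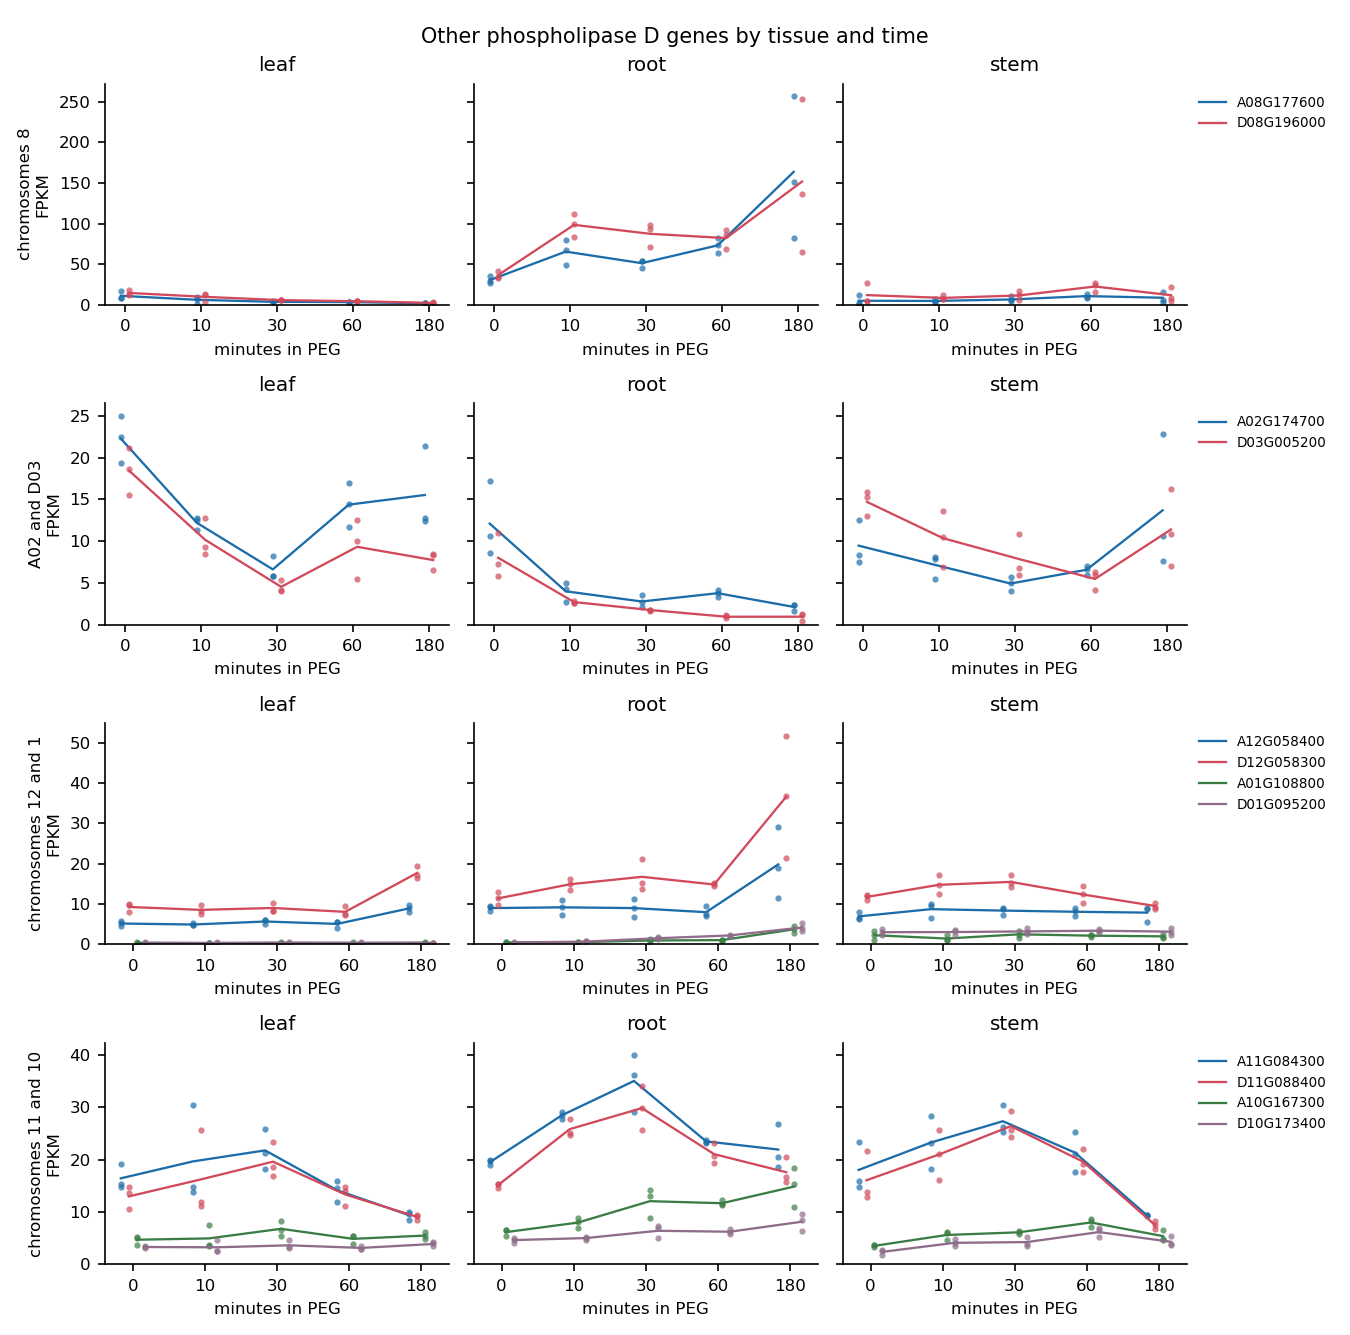
FPKM of 12 other D type genes by tissue and minutes in PEG, with times evenly spaced and not to scale; points are libraries, lines join means of 3, and each row shares 1 axis. The A08 and D08 pair is highest in root, the A02 and D03 genes fall in leaf and root, the A12 and D12 genes rise at 180 min in leaf and root, and the A11 and D11 pair ends low in stem.

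A11G084300 (A11, 8291755 to 8298993, plus strand) and D11G088400 (D11, 7703342 to 7709786, plus strand) rose early in root and ended low in stem. In root A11G084300 read 19.7, 19.9 and 18.98 FPKM at 0 min, 28.6, 29.1 and 27.8 at 10 min and 29.1, 36.2 and 40.003 at 30 min. It then read 23.8, 23.5 and 23.2 at 60 min and 26.7, 20.5 and 18.6 at 180 min. At 10, 30 and 60 min all its libraries lay above those at 0 min, and the change at 30 min was 0.804 (SE 0.15, adjusted p = 0.00133); for D11G088400 it was 0.93 (SE 0.15, adjusted p = 0.000292). In stem A11G084300 read 23.4, 15.9 and 14.8 FPKM at 0 min, 26.3, 25.3 and 30.5 at 30 min, and 9.21, 9.33 and 9.37 at 180 min, and the 3 libraries at 180 min, which agreed closely, lay below all others. The stem changes at 180 min were -0.86 (SE 0.20, adjusted p = 0.00723) and -0.98 (SE 0.21, adjusted p = 0.00415). In leaf the change of A11G084300 at 180 min, -0.75 (SE 0.25, adjusted p = 0.0501), was not called.

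Genes with the active site motif and no C2 domain were at or below 18.3 FPKM. Likely copies A10G167300 (A10, 98337692 to 98346674, plus strand) and D10G173400 (D10, 51189697 to 51198685, plus strand) rose in stem and root. A10G167300 read 3.64, 3.66 and 3.18 FPKM at 0 min, 6.18, 5.87 and 4.67 at 10 min and 5.83, 6.14 and 6.28 at 30 min. It then read 7.06, 8.25 and 8.61 at 60 min and 4.74, 6.62 and 4.697 at 180 min in stem, with every treated library above those at 0 min. The changes at 60 min were 1.00 (SE 0.15, adjusted p = 0.00095) and 1.09 (SE 0.18, adjusted p = 0.00182). In root at 180 min A10G167300 stood 1.13 (SE 0.20, adjusted p = 0.000258) above 0 min; the root rise of D10G173400 at that time, 0.69 (SE 0.16, adjusted p = 0.00271), was 0.15 and not called at the same summed FPKM. The zeta 1 genes stayed low: A02G051300 did not pass 1.17 FPKM in any library, and A11G270400 (A11, 112881223 to 112886348, plus strand) read 1.44, 3.87 and 1.14 FPKM at 0 min and 0.0836, 0.0583 and 0.215 at 180 min in root and was at or near 0 in leaf. In Arabidopsis zeta 1 is known from root hair growth. A11G270400 passed the filter through its root libraries at 0 min, so its change there is given by its levels alone. A further likely pair, A01G033100 and D01G023499, stayed between 0.706 and 3.42 FPKM in all 45 libraries; D01G023499 rose in root by 0.66 at 180 min (adjusted p = 0.00727), a change of 0.28 that was not called at the same summed FPKM.

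The remaining tested D type genes were low. D07G031900 (D07, 3391839 to 3395724, plus strand), named alpha 1, the class that in Arabidopsis acts in abscisic acid signalling of guard cells, read 0.829, 2.45 and 4.02 FPKM at 0 min and 2.08, 0.281 and 3.78 at 180 min in stem and 1.51, 2.87 and 2.12 FPKM at 0 min and 0.657, 1.505 and 1.53 at 180 min in root, passed the filter in those tissues and was not called at any time. D03G056600, without an active site motif, was at 0.717 ± 0.1099 FPKM in root at 0 min and 2.55 ± 0.186 at 30 min. It passed the filter in root only through treated libraries, so its change there is given by its levels alone. D05G257000 was tested in stem only, where 1 library at 10 min read 4.17 FPKM and the other two 0.145 and 0.173, and was not called.

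Before treatment, 16 C type and 22 D type genes were tested between tissues. Of both types together, 17 were called between leaf and root, 10 between leaf and stem and 14 between root and stem. Over all genes 47.2%, 30.7% and 42.0% were called in either direction, and the counts of both types together were below these shares. Leaf against root, 1 C type gene was higher in leaf and 7 lower, and 4 D type genes were higher and 5 lower, where 23.7% of all genes were higher and 23.5% lower. These counts include genes that passed the filter in only 1 of the tissues compared, so that the filter favours a difference, and of such genes only levels are given. A05G088100, which passed in root alone, was at 0.275 ± 0.205 FPKM in leaf and 5.89 ± 1.04 in root. D01G095300 was higher in leaf by 1.94 (SE 0.20, adjusted p = 3.49e-10), at 19.3 ± 1.21 against 4.42 ± 1.59 FPKM. For A08G177600 leaf minus root was -1.44 (SE 0.48, adjusted p = 0.013), a call lost without leaf replicate 1 (adjusted p = 0.0528) or 2 (0.0587). D03G005200, named delta, was higher in leaf than in root, with 1.14 (SE 0.26, adjusted p = 0.000486). Leaf against stem gave 1 C type gene higher and 2 lower, and 4 and 3 of the D type (17.7% and 12.9% of all genes). D01G095200, which did not pass the filter in leaf, was at 0.369 ± 0.0947 FPKM there and 3.01 ± 0.689 in stem. D01G095300 and A02G174700 were higher in leaf than in stem, with 1.51 (SE 0.20, adjusted p = 2.69e-07) and 1.18 (SE 0.26, adjusted p = 0.00068). The abundant C type genes A06G163500 and D06G169800 were the 2 lower ones, at -1.08 (SE 0.33, adjusted p = 0.00999) and -1.13 (SE 0.34, adjusted p = 0.00926), the latter lost without leaf replicate 3 (adjusted p = 0.0755). Root against stem gave 4 and 2 of the C type and 5 and 3 of the D type (21.1% and 20.9%). D05G089300 was higher in root by 2.23 (SE 0.34, adjusted p = 1.61e-06). D01G095200 and A01G108800 read higher in stem than in root, where both were below 1 FPKM in all libraries at 0 min. They passed the filter in root only through treated libraries, so the filter favours this difference and no p-value is given. A08G177600 differed most among these D type genes, by 2.79 (SE 0.48, adjusted p = 1.29e-05), at 30.4 ± 4.54 FPKM in root and 5.03 ± 5.76 in stem. The abundant D type pair was not called in any of the 3 comparisons at 0 min.

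The response over the 4 times differed between leaf and root for 9 C type and 12 D type genes, with 42.8% of all genes called by the same interaction F test. Leaf and stem differed for 4 and 6 (15.3% of all genes), and root and stem for 10 of each type (36.9%). All 3 counts include genes that passed the filter in only 1 of the tissues compared, so that the filter favours a difference. Between root and stem the smallest of these p-values among the C and D types were those of D01G095200 (2.88e-06) and D12G058300 (5.16e-06). D01G095200 passed the filter in root only through treated libraries, so the filter favours a difference, and no conclusion is drawn from its p-value.

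The 3 genes matched by letters alone behaved apart. D08G010200 (D08, 217961 to 220675, minus strand), the patatin-like protein, read 2.52, 4.86 and 4.02 FPKM at 0 min and 7.64, 7.16 and 6.65 at 180 min in leaf, 3.51, 3.89 and 3.498 FPKM at 0 min and 1.61, 2.49 and 1.38 at 180 min in root and 1.8002, 2.07 and 1.71 FPKM at 0 min and 3.26, 5.66 and 3.47 at 180 min in stem. None of these groups overlapped within a tissue. It rose by 0.79 (SE 0.21, adjusted p = 0.0191) in leaf and 0.81 (SE 0.19, adjusted p = 0.00792) in stem and fell by 0.73 (SE 0.17, adjusted p = 0.00195) in root. A05G156050 had 0 reads in all libraries, and D05G158900 did not pass 0.551 FPKM.

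Genes of the enzymes around the phospholipases were counted from lists by description words, where median changes are of log2(FPKM + 1). Diacylglycerol kinases, which turn the product of phospholipase C into phosphatidic acid, numbered 27 tested of 30 in root, where 13 rose and 0 fell at 30 min (median 0.49), against 17.6% and 16.6% of all genes (median -0.039). In leaf at 180 min 11 of 26 diacylglycerol kinases fell and 1 rose (median -0.40), against 9.61% and 9.89% of all genes (median -0.045). Phosphatidylinositol 4-phosphate 5-kinases, which make the substrate of phospholipase C, numbered 29 tested of 53 in root. At 180 min 17 of them fell and 3 rose (median -0.66), where 26.9% of all genes fell and 28.5% rose (median -0.004). In stem at 60 min 10 of 29 tested fell and 2 rose (median -0.36), where 11.6% of all genes fell and 13.3% rose (median -0.020). Non-specific phospholipases C, which act on the same lipids as phospholipase D, numbered 11 tested of 12 in leaf, where 4 fell and 0 rose at 30 min (median -0.61), against 9.50% and 8.33% of all genes (median -0.074). In root at 180 min 5 fell and 3 rose of 9 tested (median -0.69), against the same 26.9% and 28.5% of all genes. Phosphatidate phosphatases, which remove phosphatidic acid, numbered 27 tested of 34 in root, where 11 fell and 2 rose at 180 min (median -0.25), again against 26.9% and 28.5%. Inositol phosphate phosphatases, which break down the soluble product, numbered 39 tested of 48 in stem, where 13 fell and 4 rose at 180 min (median -0.41), with 14.3% of all genes falling and 29.3% called in either direction (median -0.002). Genes with a C2 domain that are neither type numbered 133 tested of 221 in root, where 44 rose and 38 fell at 180 min (median 0.15), shares near those of all genes. Only some tissues and times are given for each list, and others differed in their counts or median. In root at 10 min 6 of 27 phosphatidate phosphatases rose and 0 fell (median 0.18), against 8.16% and 7.03% of all genes (median -0.004). In root at 60 min 4 of 9 non-specific phospholipases C rose and 1 fell, against 19.5% and 19.1% of all genes. Their median there, -0.075, was below that of all genes (-0.005), so counts and median differed in direction. In leaf at 30 min 4 of 26 diacylglycerol kinases rose and 0 fell (median 0.16), against 8.33% and 9.50% of all genes (median -0.074). In stem at 180 min 5 of 29 5-kinases rose and 7 fell (median 0.20). Of all genes 14.3% fell there and 29.3% were called in either direction (median -0.002). The counts therefore give no direction for a whole family, and they were not tested against other genes.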

How the data were processed

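RNA-seq values of all 45 libraries came from 1 table deposited by the authors as FPKM, with 0 columns left unmapped to a sample. The submitters' processing notes name HISAT2 2.0.5, an aligner, and featureCounts 1.5.0-p3, a read counter. The genome build, strand setting and treatment of reads matching several copies are not given in the sources used here, and coordinates are as in the deposited table. None of the identifiers (0) matched the RefSeq gene table at hand, so no sequences were used. The whole reads behind the FPKM were recovered within 0.01 read and used for depth and for counts of 0 only. In root at 0 min 2 columns share a name and were kept as libraries x and y without a replicate number.

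Values were taken as log2(FPKM + 1), with genes kept at 1 FPKM or more in at least 3 libraries of the fit. Each tissue (15 libraries) was fitted with limma 3.58.1 in R 4.3.3 (moderated statistics with trend and robust settings) for each time against 0 min, each time against the one before, and an F test over 4 times. A fit of all 45 libraries gave tissue differences at 0 min and interaction F tests, those of the leaf, root and stem responses against each other. P-values were adjusted over all genes of the fit (Benjamini-Hochberg) and called under 0.05. The procedure was tested on simulated data. The fits used the FPKM as deposited, and no count model was run on the recovered reads. Tried as alternatives were: a smaller pseudocount (0.1), a filter of 5 FPKM or none, scaling to the same summed FPKM, quantile scaling, array weights, the replicate number as a block, the 6 libraries of 2 groups alone, a fit of 45 libraries, and leaving out each library.

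The genes, the gene lists and the tests were chosen with earlier results of these data known. All C and D type genes could be named. Full values went to the most abundant gene of each type and tissue, those with the smallest F test p, the largest non-overlapping rise and fall at each time, and those that differed most between tissues; others, such as single genes with lost calls, were chosen after their values were seen. The lists of related enzymes and tissue markers were made by description words.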

Additional observations from a re-analysis of the deposited data

Results flagged for a closer look

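The responses over the 4 times differed between tissues for the following genes, which had the smallest adjusted p-values of the limma interaction F test per type and pair of tissues. Between leaf and root they were D02G225200 (6.39e-10) and A05G329800 (2.59e-06) of the C type, and D01G095200 (1.44e-06) and A08G177600 (0.000153) of the D type. D01G095200 did not pass the filter in leaf, so the filter favours a difference, and no conclusion is drawn from its p-value between leaf and root. Between leaf and stem they were A06G163500 (0.00492) and D02G225200 (0.00693) of the C type, and D12G058300 (0.000298) and A08G177600 (0.0113) of the D type. Between root and stem they were D02G225200 (9.94e-06) and A05G329800 (7.78e-05) of the C type, and D01G095200 (2.88e-06) and D12G058300 (5.16e-06) of the D type. In root D01G095200 passed the filter only through treated libraries, so no conclusion is drawn from its p-value between root and stem either. The genes named here were picked for their small p-values, and no cause was tested.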

How the results depend on the processing

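Counts are of C and D type genes called. With a pseudocount of 0.1 the 1 gene called in root from 10 to 30 min became 2. Without a filter it became 0, stem from 30 to 60 min went from 2 to 1, and leaf against stem and root against stem at 0 min went from 10 to 16 and from 14 to 22. With a filter of 5 FPKM leaf from 10 to 30 min went from 0 to 1, stem at 30 min from 1 to 2, and those tissue differences became 6 and 9. Quantile scaling gave 3 in root from 10 to 30 min, 2 in stem at 30 min and 0 in stem from 30 to 60 min, where scaling to the same summed FPKM gave 2 higher and 0 lower in place of 0 and 2. From 30 to 60 min in root the latter scaling gave 0 higher and 6 lower in place of 1 and 6, and quantile scaling gave 1 and 4 in stem from 60 to 180 min in place of 0 and 4. The median of all genes under the same summed FPKM moved by more than 0.1 also in root at 30 and 60 min (to -0.14 and -0.13) and from 60 to 180 min (to -0.31), and in stem from 30 to 60 min (to 0.11).

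Array weights raised leaf at 60 min from 4 to 9, leaf from 10 to 30, 30 to 60 and 60 to 180 min from 0 to 1, 1 to 4 and 3 to 7, and root over the same steps from 1 to 18, 7 to 16 and 18 to 29. They raised the stem F test of the C type from 3 to 8, stem at 10, 30, 60 and 180 min from 0 to 2, 1 to 8, 7 to 12 and 5 to 10, and stem from 30 to 60 and 60 to 180 min from 2 to 8 and 4 to 9. Leaf against stem at 0 min became 19, and the interactions went from 21 to 32 (leaf and root), 10 to 23 (leaf and stem) and 20 to 36 (root and stem). The 6 libraries alone gave 0 in leaf at 10 min, 2 in leaf at 60 min, 0 in stem at 30 min and 2 in stem at 180 min. The fit of 45 libraries gave 7 in stem at 30 min.

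The labels do not say what a replicate number marks. At stem 10 min all 3 same-numbered pairs correlated above 0.1 (0.620, 0.172 and 0.267), where 0 genes were called with and without the block, and at no other time did all 3 pairs of a tissue. Deviations of same-numbered libraries correlated at -0.519 to 0.551 in leaf (4 of 12 over 0.1), -0.0563 to 0.126 in root (2 of 4) and -0.418 to 0.620 in stem (5 of 12), and 2 of 12 treated libraries in leaf and 3 of 12 in stem correlated best with their own number. The replicate block, which in root drops libraries x and y, gave 2 in leaf at 60 min, 0, 9, 7 and 15 in root at 10, 30, 60 and 180 min, and 0 in stem at 30 min. Under the block root from 10 to 30 and 30 to 60 min gave 0 and 4, and stem from 30 to 60 and 60 to 180 min 1 and 2. The block also gave 9 for leaf against root (17 without it) and 8 for root against stem at 0 min.

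Leaving out each library in turn gave F test counts in leaf of 3 to 6 (C type) and 7 to 11 (D type), in root of 13 to 15 and 16 to 19, and in stem of 1 to 6 and 6 to 9. At 10, 30, 60 and 180 min the counts were 1 to 3, 5 to 11, 2 to 6 and 8 to 12 in leaf, 6 to 13, 16 to 22, 14 to 22 and 22 to 25 in root, and 0 to 0, 0 to 4, 5 to 8 and 3 to 9 in stem. The steps gave 0 to 2, 0 to 2 and 3 to 5 in leaf, 0 to 3, 2 to 9 and 14 to 22 in root, and 0 to 0, 0 to 4 and 2 to 6 in stem. At 0 min they were 14 to 18 (leaf and root), 7 to 11 (leaf and stem) and 11 to 15 (root and stem), and for the interactions 18 to 22, 9 to 12 and 17 to 23. Low leaf counts came without any 1 library at 0 min (2 at 60 min).

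Of 191 called single values, 120 were kept on leaving out any 1 library. A pseudocount of 0.1 kept 180, no filter 178, a filter of 5 FPKM all 158 tested, the same summed FPKM 170, quantile scaling 176, array weights 191, the block 117 of 187, the 6 libraries 101 of 113 and the fit of 45 libraries 102 of 114. The 1 reversed value was D01G095300 in root at 180 min, -0.0365 at the same summed FPKM. Counting the 3 letter matches as D type, chosen after seeing the data, gave F test counts of 10, 20 and 10 in leaf, root and stem. The cause of these changes was not tested. Low genes are limited by depth, since 1 read in a gene of 1 kb is worth up to 0.0899 FPKM.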
